A study of Drosophila melanogaster with 34 samples.

Results

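The Niemann-Pick type C genes of *D. melanogaster* encode proteins that move sterols out of the lysosome. The 10 genes taken here are the *Npc1* and *Npc2* genes that carry these names, 2 of the *Npc1* and 8 of the *Npc2* kind, among the 16495 genes of the count table, and all 10 were found in it. The family was picked by name and because *Npc2f* is among the genes whose copper response differed most between tolerant and sensitive strains. The class difference is therefore given for every member as a description with no test, and *Npc2f* is given with no test anywhere.

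Each of the 34 RNA-seq libraries was made from 20 whole mated females. The tolerant strains were GIM-012, MUN-008 and MUN-020, which the sample labels call resistant, and the sensitive strains were AKA-018, COR-018 and JUT-008. All 6 are wild-caught European strains inbred for 20 generations, with no transgene, so that replicates of a strain share most of their genotype and a class rests on 3 strains. Flies spent 24 h on 5% sucrose with 20 mM CuSO4 (copper) or on sucrose alone (control). There were 3 copper libraries per strain and 3 control libraries per strain, except for MUN-020 and AKA-018 with 2 control libraries each, so that each class had 9 copper and 8 control libraries. The labels give an age of 3 to 7 days, whereas the paper starts the range at 4 days. According to the methods, flies that had died were removed before extraction in COR-018 and JUT-008, so those libraries hold survivors only. The paper calls the replicates biological, while the labels do not say whether they came from separate cultures, so the *p*-values measure the spread between these libraries, which may in part be technical.

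Libraries held 22796637 to 42567920 counted reads. The metallothioneins, small proteins that bind copper, checked the copper label, since 5 of 5 rose in tolerant strains (median log2 fold change 3.69) and 5 of 5 in sensitive strains (4.50). Transcripts of the male accessory gland, which females lack, were read from 4 of 13 listed genes, as the other 9 were not found in the count table used here. They summed to at most 0.13 CPM (TMM-normalized counts relative to library depth) in tolerant libraries, but to over 10 CPM in 6 sensitive libraries, 1 of copper and 5 of control flies, where they ranged from 13.0 CPM (JUT-008 copper replicate 3) to 53.5 CPM (JUT-008 control replicate 1). The count of members called in sensitive strains is given with and without these 6 libraries, while counts in single strains and in controls include them. All AKA-018 controls are among the 6, so the fits without them leave out AKA-018 as a whole.

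In the pathway as it is known, a soluble Npc2 protein takes cholesterol from the lumen of the late endosome and lysosome and hands it to Npc1, a protein with many membrane spans that passes it into the limiting membrane. Insects cannot make sterols and must take them from food, so the same machinery also serves uptake by the gut and the supply of substrate for ecdysone, the moulting hormone. Mammals have a single *NPC2* gene, whereas the fly has a family of small secreted proteins with the same lipid-binding fold.

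Among the *Npc1* genes, *Npc1a* is the counterpart of human *NPC1* and is used in many tissues. It lies on 2L at 10213812 to 10221216 (all positions are in dm6, from Ensembl release 115). *Npc1b* lies on X at 20934869 to 20939503 and is the midgut gene, needed for the absorption of dietary sterol. The *Npc2* genes are short, with 651 to 922 bases of exon. *Npc2a* (2L, 1988290 to 1988940) is the broadly used member and acts together with *Npc2b* (3R, 14089517 to 14092425) in sterol balance and steroid hormone supply. *Npc2f* stands alone on 3R at 24137895 to 24140936.

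The other 5 genes lie on 3R in a pair of clusters with no other gene between them. *Npc2e* (10053332 to 10054348), *Npc2d* (10055356 to 10056083) and *Npc2c* (10060252 to 10061136) follow each other with gaps of 1007 and 4168 bp, and *Npc2g* (30744605 to 30745263) and *Npc2h* (30745479 to 30746290) are 215 bp apart. *Npc2d* lies on the strand opposite to its neighbours, and *Npc2g* and *Npc2h* lie on the same strand. *Npc2c* and *Npc2e* each overlap an antisense RNA, and the reads were counted by strand. The antisense partner of *Npc2e* had 0.93 to 7.78 CPM and that of *Npc2c* at most 8 counts in a library. The likeness of the members in sequence was not analysed here, and reads that matched several places had been discarded.

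Mean levels of the members in control libraries spanned over 3 orders of magnitude, a span set by *Npc2c*, which was near the floor. Per kb of exon, so that genes of different length can be compared, *Npc2g* and *Npc2a* were the most abundant. Levels of *Npc2g* averaged 164 ± 65.3 CPM per kb in the 18 copper libraries and 221 ± 80.4 in the 16 control libraries (SD). Those of *Npc2a* averaged 162 ± 36.7 CPM per kb in copper and 159 ± 23.3 in control libraries. *Npc2g* was above *Npc2a* in 11 of 18 copper libraries and in 16 of 16 control libraries, so the order of these neighbours was uniform in control libraries and not in copper libraries. *Npc2a* was above the next gene, *Npc2h*, in every library of both treatments.

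In copper libraries *Npc2h* (47.1 ± 15.2 CPM per kb) and *Npc2b* (44.1 ± 10.8) came next, and *Npc2h* was the higher in 10 of 18. In control libraries they had 57.6 ± 25.5 and 48.9 ± 14.4 CPM per kb, and *Npc2h* was the higher in 13 of 16. Below them, *Npc1a*, *Npc2d*, *Npc2f* and *Npc2e* had means of 14.4 to 19.2 CPM per kb in copper libraries and 12.9 to 26.5 in control libraries. Their order changed from library to library. *Npc2d* was above *Npc2f* in 9 of 18 copper libraries, while *Npc2f* was above *Npc2d* in 9 of 16 control libraries. *Npc1b* was lower than these, at 2.63 ± 2.18 CPM per kb in copper and 3.73 ± 2.67 in control libraries.

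*Npc2c* was near the floor, with 0 to 13 counts in a library, so that its fold changes carry large errors and no direction is read from them. In the plot of levels it is the one gene with libraries at a count of 0.

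**Figure D1:**
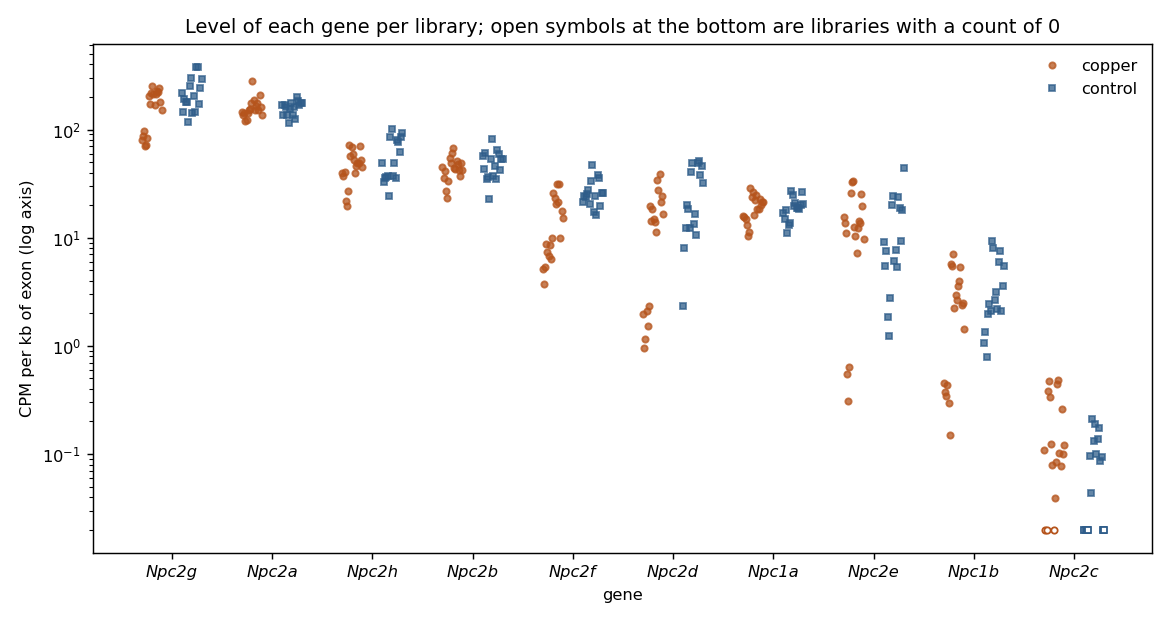
CPM per kb of exon (log axis) of each gene in each of 18 copper (circles) and 16 control (squares) libraries, with genes ordered by their mean in control libraries. *Npc2g* and *Npc2a* stand at the top, *Npc2c* at the bottom, and *Npc2f*, *Npc2d*, *Npc2e* and *Npc1b* have copper libraries well below the rest.

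The question of the copper comparison was which genes responded in each class. In sensitive strains 3 of the 9 members other than *Npc2f* were lower after copper, *Npc2d*, *Npc1b* and *Npc2g*, and none was higher. In these strains 7.75% of the 12308 genes tested were called (an adjusted *p*-value below 0.05 over all genes and a fold change over 1.5), with 5.94% called lower. In tolerant strains 0 of 9 were called, against 1.53% of 11602 genes, by edgeR's quasi-likelihood test and also by DESeq2, while 2 of 9 had an unadjusted *p*-value below 0.05. The median log2 fold change over the 10 members was -0.16 in tolerant and -0.31 in sensitive strains, against medians over all genes of -0.00 and -0.02. The 3 called genes stayed called without each library in turn. They also stayed called without the 6 libraries with male transcripts, in a fit that left out all of AKA-018 and so rested on COR-018 and JUT-008. Without the strain term in the model, which leaves the differences among strains in the error, 0 of the 9 were called in sensitive strains. As whole bodies were sequenced, fewer cells of a type and less RNA per cell cannot be told apart.

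Copper and control libraries were also compared for overlap within single strains, with the share of all genes in brackets. Of the 8 members other than *Npc2f* with enough counts, copper libraries lay all below the controls for 0 in GIM-012 (17.6% of all genes), 1 in MUN-008 (9.0%) and 7 in MUN-020 (31.1%). Among sensitive strains they lay all below for 3 in COR-018 (26.7%), 4 in JUT-008 (14.6%) and 4 in AKA-018 (16.0%), and all above for 1, *Npc2e*, in AKA-018 (8.68%) and in COR-018 (22.4%). MUN-020 and AKA-018, with 2 controls each, separate more easily. *Npc1a* overlapped in each strain. *Npc2d* lay below the controls in 5 of 6 strains, a pattern whose share over all genes was not computed. *Npc2f* did so too, but it was chosen by its response and nothing is read from that.

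The role of *Npc2f* beyond its membership of the family is little known. In the tolerant GIM-012 it had 18.4, 16.7 and 14.7 CPM after copper, against 12.2, 17.3 and 11.6 CPM in controls. In MUN-008 it had 7.03, 12.6 and 10.7 CPM after copper, against 14.0, 18.3 and 18.6 CPM in controls. In MUN-020 it had 22.2, 15.4 and 22.5 CPM after copper, against 26.8 and 25.2 CPM in controls. The copper libraries thus overlapped the control libraries in GIM-012 and lay below them in MUN-008 and MUN-020. Over the 3 tolerant strains the log2 fold change was -0.27 ± 0.16 (SE).

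In sensitive strains its copper libraries lay below 8 CPM throughout. *Npc2f* had 6.12, 4.49 and 7.09 CPM after copper in AKA-018, against 23.7 and 33.3 CPM in controls. COR-018 had 3.62, 2.68 and 3.79 CPM after copper, against 15.3, 17.2 and 16.8 CPM in controls. JUT-008 had 6.27, 5.26 and 4.84 CPM after copper, against 18.0, 19.6 and 14.5 CPM in controls. *Npc2f* was the one member whose 9 copper libraries all lay below all 8 control libraries of the sensitive class, a pattern shown by 0.333% of the genes tested, from which nothing is read as the gene was chosen by its response. The log2 fold change was -2.07 ± 0.13, which is 4.19-fold lower after copper. Fitted by strain, the log2 fold changes were 0.26 ± 0.19 (GIM-012), -0.74 ± 0.22 (MUN-008) and -0.33 ± 0.16 (MUN-020) among tolerant strains, and -2.28 ± 0.22 (AKA-018), -2.27 ± 0.15 (COR-018) and -1.68 ± 0.18 (JUT-008) among sensitive strains.

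*Npc2d*, a small secreted protein of the same family, had the largest fall in sensitive strains among the members tested. AKA-018 had 12.9, 9.34 and 12.1 CPM after copper, against 26.5 and 32.4 CPM in controls. COR-018 had 1.30, 0.632 and 0.763 CPM after copper, against 1.53, 5.27 and 8.07 CPM in controls. JUT-008 had 1.39, 1.01 and 1.55 CPM after copper, against 13.2, 12.1 and 8.06 CPM in controls. Copper libraries lay below control libraries within each of these strains, but AKA-018 after copper was above every COR-018 control, so copper and control libraries of the class overlapped. The log2 fold change was -2.36 ± 0.32 (adjusted *p*-value = 1.1e-04, edgeR, n = 9 and 8 libraries), or 5.12-fold lower.

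In tolerant strains *Npc2d* moved less. GIM-012 had 9.94, 9.29 and 7.40 CPM after copper, against 8.81, 10.9 and 6.96 CPM in controls. MUN-008 had 14.0, 15.9 and 11.0 CPM after copper, against 24.9, 30.1 and 21.0 CPM in controls. MUN-020 had 22.8, 18.3 and 25.6 CPM after copper, against 32.2 and 34.2 CPM in controls. GIM-012 overlapped, and MUN-008 and MUN-020 had copper libraries below their controls. The fit over the class gave -0.49 ± 0.14 with an adjusted *p*-value of 0.092 in edgeR, which missed the threshold. Leaving out GIM-012 made it a call, at -0.73.

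*Npc1b*, the gut sterol uptake gene, fell to low levels in COR-018 and JUT-008. COR-018 had 1.79, 1.49 and 1.35 CPM after copper, against 4.22, 5.36 and 3.12 CPM in controls. JUT-008 had 1.72, 1.18 and 0.597 CPM after copper, against 7.81, 9.79 and 8.34 CPM in controls. AKA-018 had 22.7, 21.7 and 28.0 CPM after copper, against 36.8 and 31.9 CPM in controls. Each sensitive strain had copper libraries below its controls, and AKA-018 had several times the level of the other sensitive strains under both treatments. The class fit gave -1.66 ± 0.30 (adjusted *p*-value = 0.00113, edgeR), or 3.16-fold lower.

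The sensitive strains did not share one size of *Npc1b* response. JUT-008 had a log2 fold change of -2.90 ± 0.39, COR-018 of -1.44 ± 0.25 and AKA-018 of -0.51 ± 0.16. The test of the strain by copper interaction within the class, added after the data were seen, had an adjusted *p*-value of 0.0199 (edgeR), and 2 of 9 members passed it in sensitive strains, against 2.02% of all genes. For *Npc1b* the call was lost without AKA-018 control replicate 3 (0.0684) or 4 (0.0824) or copper replicate 1 (0.0505). In tolerant strains *Npc1b* had 8.80, 11.7 and 10.4 CPM after copper in GIM-012, against 10.6, 12.6 and 8.65 CPM in controls, and the groups overlapped. It had 9.54, 9.96 and 5.64 CPM after copper in MUN-008, against 8.27, 14.3 and 22.0 CPM in controls, which also overlapped. In MUN-020 the 14.2, 15.9 and 21.4 CPM after copper were all below the 23.4 and 29.6 CPM in controls. The class fit of -0.49 ± 0.19 had an adjusted *p*-value of 0.261 (edgeR).

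*Npc2g* is the most abundant member per kb, and it fell in sensitive strains by less than the genes above. COR-018 had 53.3, 57.8 and 64.0 CPM after copper, against 143, 95.8 and 127 CPM in controls. JUT-008 had 46.3, 47.1 and 55.3 CPM after copper, against 118, 119 and 77.6 CPM in controls. AKA-018 had 135, 113 and 145 CPM after copper, against 168 and 198 CPM in controls. Copper libraries lay below controls in each sensitive strain. The log2 fold change was -0.91 ± 0.12 (adjusted *p*-value = 7.5e-05, edgeR), or 1.88-fold lower.

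In tolerant strains *Npc2g* was called in MUN-020 alone. It had 139, 151 and 148 CPM after copper in MUN-020, against 248 and 249 CPM in controls, a log2 fold change of -0.73 ± 0.07 (adjusted *p*-value = 0.00298, edgeR). GIM-012 had 167, 141 and 112 CPM after copper, against 94.2, 134 and 95.5 CPM in controls. MUN-008 had 158, 119 and 99.4 CPM after copper, against 115, 158 and 195 CPM in controls. Copper libraries overlapped controls in GIM-012 and MUN-008 and lay below them in MUN-020. The fit over the class gave -0.20 ± 0.16 (adjusted *p*-value = 0.736, edgeR). The strain by copper interaction had an adjusted *p*-value of 0.0334 (edgeR), a threshold passed by 24.1% of all genes in tolerant strains, and it was lost without any of 9 of the 17 libraries, rising to at most 0.116 (without GIM-012 control replicate 4).

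Its neighbour *Npc2h*, whose protein has been reported to bind bacterial cell wall components, did not pass in either class. The log2 fold change was -0.28 ± 0.15 in tolerant strains (adjusted *p*-value = 0.535, edgeR) and -0.34 ± 0.12 in sensitive strains (adjusted *p*-value = 0.0553). In MUN-020 *Npc2h* had 37.3, 40.1 and 40.2 CPM after copper, against 65.1 and 62.9 CPM in controls, and the fall of 0.67 on the log2 scale was called (adjusted *p*-value = 0.00542, edgeR). In COR-018, where *Npc2g* fell by 1.05 (adjusted *p*-value = 0.00885), *Npc2h* had 32.2, 30.5 and 32.7 CPM after copper, against 40.1, 26.7 and 28.8 CPM in controls, with a log2 fold change of 0.02 ± 0.15. Genes 215 bp apart thus had unlike values in this strain.

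**Figure D2:**
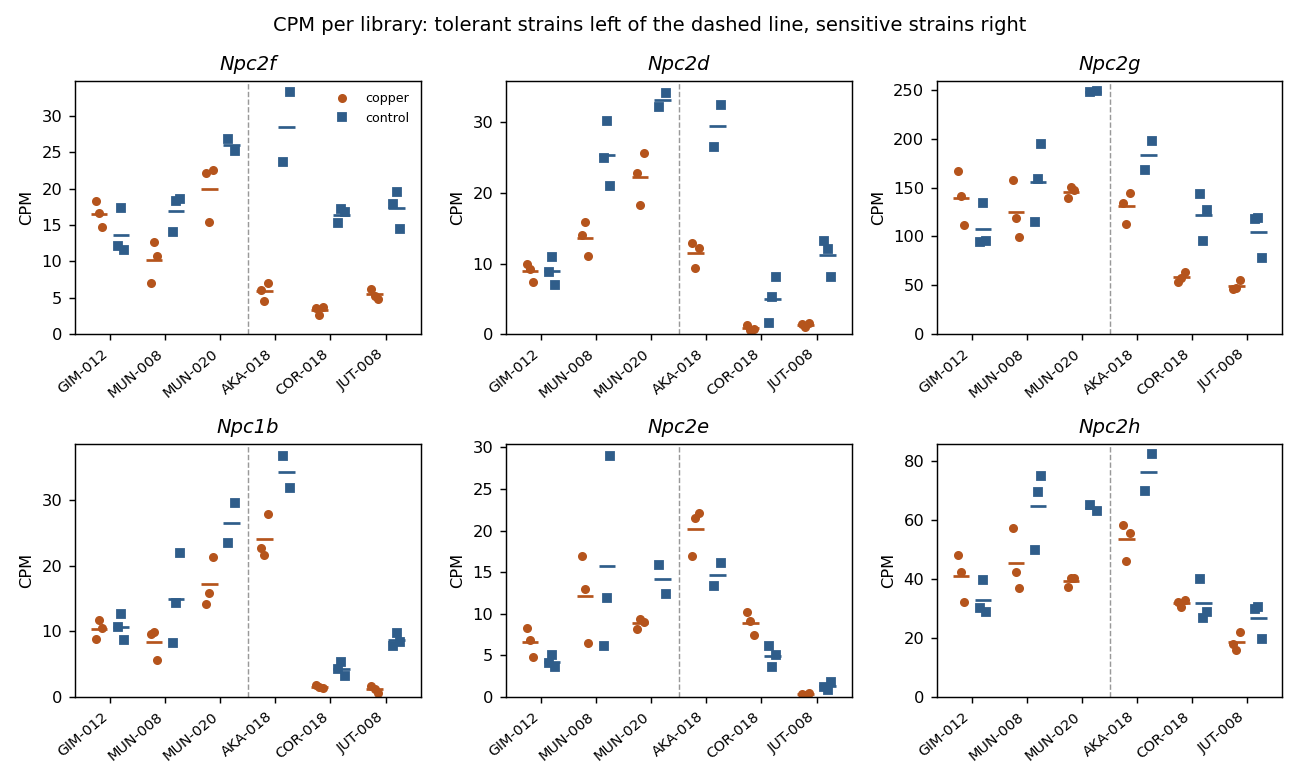
CPM in each copper (circles) and control (squares) library of the 3 tolerant and 3 sensitive strains for 6 members, with a bar at each mean. *Npc2f*, *Npc2d*, *Npc2g* and *Npc1b* have copper libraries below control libraries in each sensitive strain, while *Npc2e* is higher after copper in AKA-018 and COR-018 and lower in JUT-008.

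*Npc2e*, next to *Npc2d* and likewise reported to bind bacterial cell wall components, moved in opposite directions among sensitive strains. COR-018 had 10.3, 9.10 and 7.38 CPM after copper, against 6.06, 3.60 and 4.98 CPM in controls. AKA-018 had 17.0, 21.5 and 22.1 CPM after copper, against 13.3 and 16.1 CPM in controls. JUT-008 had 0.362, 0.202 and 0.418 CPM after copper, against 1.23, 0.818 and 1.84 CPM in controls. Copper libraries were above controls in COR-018 and AKA-018 and below them in JUT-008, which had by far the lowest level of the gene.

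By strain the log2 fold change of *Npc2e* was 0.89 ± 0.23 in COR-018 (adjusted *p*-value = 0.035, edgeR), 0.46 ± 0.19 in AKA-018 (0.307) and -1.96 ± 0.46 in JUT-008 (0.0701). The strain by copper interaction within the class had an adjusted *p*-value of 0.00748 (edgeR), and of 0.00469 to 0.0228 without each library in turn. The class fit of -0.04 ± 0.34 therefore averages unlike strains, and leaving out JUT-008 turned it to 0.69, which was called. In the same COR-018 flies *Npc2d*, 1007 bp away, had a log2 fold change of -2.45 ± 0.65 (adjusted *p*-value = 0.0399, edgeR).

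In tolerant strains *Npc2e* gave -0.11 ± 0.28 over the class (adjusted *p*-value = 0.939, edgeR). MUN-020 had 8.18, 9.38 and 8.96 CPM after copper, against 15.9 and 12.4 CPM in controls, and was the one tolerant strain with a call for this gene, at -0.64 ± 0.14 (adjusted *p*-value = 0.0264, edgeR). GIM-012 had 8.30, 6.85 and 4.81 CPM after copper, against 4.05, 5.08 and 3.55 CPM in controls. MUN-008 had 16.9, 13.0 and 6.50 CPM after copper, against 6.16, 11.9 and 29.0 CPM in controls. Copper and control libraries overlapped in GIM-012 and MUN-008.

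The broadly used members did not pass in either class. *Npc1a* had a log2 fold change of 0.02 in tolerant strains, with a 95% interval of -0.16 to 0.21, and of -0.08 in sensitive strains, with an interval of -0.22 to 0.05. For *Npc2a* the change was 0.11 in tolerant strains (-0.18 to 0.40) and -0.11 in sensitive strains (-0.26 to 0.04). These class intervals lie within a 1.5-fold change in either direction, and no strain alone gave a call for either gene. For *Npc2a* the tolerant estimates ranged from -0.20 ± 0.09 in MUN-020 to 0.53 ± 0.22 in GIM-012. Its class interval therefore does not hold for each strain. The strain by copper interaction of *Npc2a* in tolerant strains had an adjusted *p*-value of 0.0902 (edgeR). *Npc2b* had -0.06 ± 0.13 in tolerant strains (adjusted *p*-value = 0.929, edgeR) and -0.29 ± 0.12 in sensitive strains (adjusted *p*-value = 0.083). For *Npc2c* the values were 0.89 ± 0.55 in tolerant strains (adjusted *p*-value = 0.603, edgeR) and 1.26 ± 0.85 in sensitive strains (adjusted *p*-value = 0.29), from at most 13 counts in a library.

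Fitted in each strain alone, where 8 of the 9 members could be tested, copper gave 11 calls in all. GIM-012 had 0 calls (5.62% of all genes were called in it) and 2 members with an unadjusted *p*-value below 0.05. MUN-008 also had 0 calls (1.14% of all genes), with 3 members below 0.05 unadjusted. MUN-020 had 3, all lower (4.22% of all genes were called, 2.24% lower), namely *Npc2e*, *Npc2g* and *Npc2h*. In MUN-020 summed enterocyte markers had 4190 to 4827 CPM after copper, against 6780 to 6945 CPM in controls, and their part in these calls was not tested.

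Among sensitive strains, AKA-018 had 1 call, a lower one (6.43% of all genes were called, 5.47% lower), *Npc2d* at -1.36 ± 0.18 (adjusted *p*-value = 0.00128, edgeR). COR-018 had 4 calls (10.4% of all genes were called, 8.17% lower and 2.2% higher), with *Npc1b*, *Npc2d* and *Npc2g* lower and *Npc2e* higher. JUT-008 had 3 calls (4.11% of all genes were called, 3.11% lower), with *Npc1b*, *Npc2d* at -3.08 ± 0.29 (adjusted *p*-value = 0.00242, edgeR) and *Npc2g* at -1.09 ± 0.19 (0.0259), all lower. *Npc2d* was the member called in all 3 of these strains. Leaving out single libraries moved the total of 11 over a range of 7, without COR-018 copper replicate 1, to 13, without MUN-020 copper replicate 3, and it was 8 without COR-018 copper replicate 3 or 4.

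**Figure D3:**
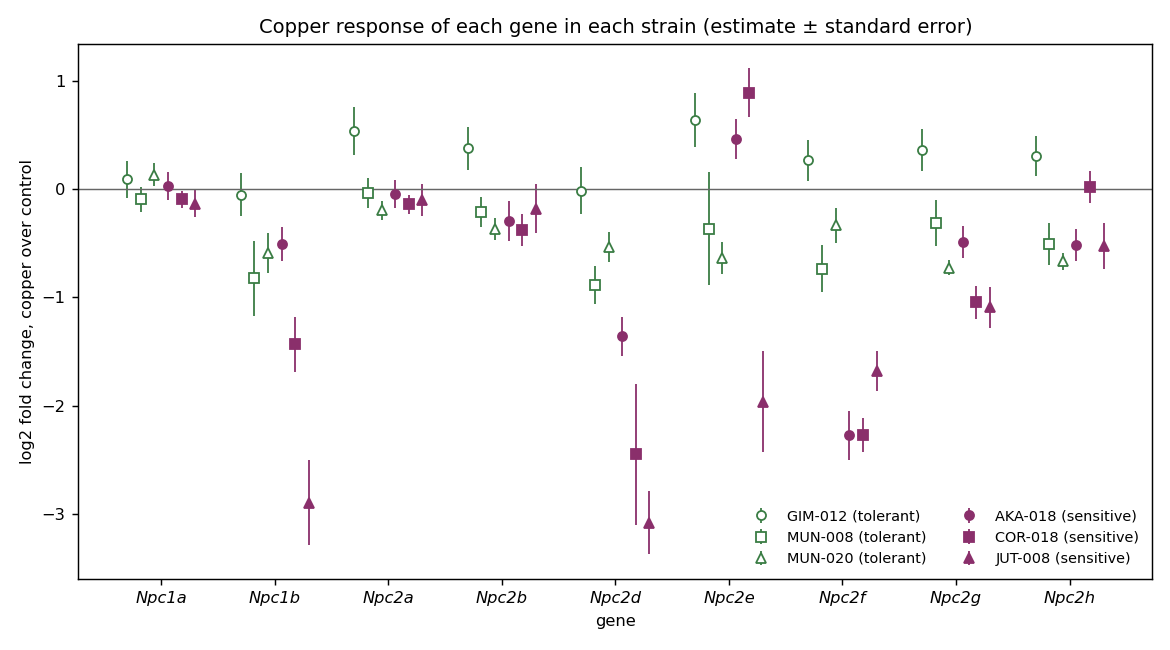
Log2 fold change of copper over control (estimate ± SE) of 9 members in each strain, tolerant strains as open and sensitive strains as filled symbols; *Npc2c* was not tested in single strains. *Npc2d* and *Npc2f* have all 3 sensitive strains below all 3 tolerant strains, *Npc1a* stays near 0, and *Npc2e* has COR-018 highest at 0.89 and JUT-008 lowest.

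The class difference, tolerant minus sensitive, helped to choose the family and is a description. It was 1.81 ± 0.22 (log2, SE) for *Npc2f*, rank 3 of 12511 genes when ordered by the statistic of this fit. The genes on either side were *Peritrophin-15a* (2.01 ± 0.24) and *mag* (1.83 ± 0.25). Rank 5 was *CG43673* (1.26 ± 0.18), and rank 6, just outside the 5 leading genes, was *CG4734* (1.85 ± 0.27). *Npc2f* kept a difference of 1.50, without GIM-012, to 2.07, without MUN-008.

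*Npc2d* had 1.84 ± 0.35, *Npc1b* 1.16 ± 0.36 and *Npc2g* 0.72 ± 0.22. *Npc2b*, *Npc2a*, *Npc1a* and *Npc2h* lay between 0.07 and 0.24, and *Npc2e* and *Npc2c* had -0.16 ± 0.46 and -0.27 ± 0.88. *Npc2d* and *Npc2f* were the 2 of 9 members whose log2 fold change was lower in all 3 sensitive than in all 3 tolerant strains, an arrangement held by 6.73% of genes. *Npc2f* was picked by this contrast, so nothing is read from that share. Across all genes 4.13% had an adjusted *p*-value below 0.05 for this contrast, but 0 did when counts were summed per strain and treatment (edgeR), with 454 genes at an unadjusted *p*-value below 0.05.

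Without copper no member passed the comparison of the classes. In control libraries 0 of the 8 members tested were called between tolerant and sensitive strains, by edgeR and by DESeq2, none had an unadjusted *p*-value below 0.05, and 5.36% of 12217 genes were called. These 655 genes became 107 without the libraries with male transcripts, 11 with at least 10 counts in every library, 6 without GIM-012 and 21 without MUN-008. Exact permutation tests over the 6 strain means, two-sided, gave *p*-values of 0.4 to 1 for the 9 members other than *Npc2f*, none adjusted, where 0.1 is the smallest possible. *Npc2f* had 18.0 ± 5.62 CPM in tolerant and 19.8 ± 6.15 CPM in sensitive controls (SD, n = 8 each). The largest estimates were those of *Npc2e* (0.84 ± 0.60) and *Npc2d* (0.62 ± 0.50), both within 2 SE of 0. Over the alternatives the *Npc2d* estimate ranged from 0.19 to 2.08 and that of *Npc2e* from 0.31 to 1.79, with neither called. Leaving out AKA-018 gave 2 calls, *Npc1b* at 1.29 and *Npc2h* at 0.81.

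The strains themselves differed. All 8 members tested had an adjusted *p*-value below 0.05 for differences among strains in control libraries (edgeR), as did 81.7% of genes. *Npc2e* varied most, with strain means of 15.7 CPM in MUN-008 and 1.30 CPM in JUT-008, a ratio of 12.1. *Npc1b* had 34.4 CPM in AKA-018 and 4.23 CPM in COR-018, a ratio of 8.12, and *Npc2d* had 33.2 CPM in MUN-020 and 4.96 CPM in COR-018, a ratio of 6.69. *Npc2a* varied least, with 125 CPM in MUN-020 and 89.8 CPM in JUT-008, a ratio of 1.40. The lowest strain was a sensitive one for 9 of 10 members, JUT-008 for 6 of them, and *Npc2f*, lowest in GIM-012, was the exception. The highest strain was tolerant for 4 and sensitive for 6. These counts include *Npc2c*, which was near the floor. The shares of all genes with such arrangements were not computed, so nothing is read from the counts.

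The genes whose levels most resembled those of *Npc2f* were found by Pearson's correlation of log2 CPM over the 34 libraries after subtracting strain means. They were *mag* (r = 0.965), which encodes a gut lipase that also cleaves cholesterol esters, *CG18404* (0.961), *CG8560* (0.951), *thetaTry* (0.945), a trypsin of the gut, and *CG4734* (0.944). The points share libraries, strains and the copper contrast, so the values are a description. Within the family the highest values were those of *Npc2d* with *Npc2f* (0.850) and of *Npc1b* with *Npc2d* (0.811). The adjacent *Npc2g* and *Npc2h* had 0.780, *Npc2a* and *Npc2b* had 0.722, the adjacent *Npc2d* and *Npc2e* had 0.278, and *Npc2e* and *Npc2f* had 0.082.

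Of 20 other genes that handle sterols and lipoproteins, 1 rose in tolerant strains and none fell, while 1 rose and 2 fell in sensitive strains, against 1.53% and 7.75% of all genes called. Without the fold-change threshold 4 rose and 2 fell in sensitive strains (adjusted *p*-value below 0.05, edgeR), as did 1235 and 1876 of all 12308 genes. Over the list the median log2 fold change in tolerant strains was 0.02, and that in sensitive strains was 0.09. *Lip3*, which encodes a lipase, passed in both classes. Tolerant strains had 7.86 ± 2.0 CPM of it after copper and 1.87 ± 0.85 CPM in controls (SD), and the fit gave 2.11 ± 0.18 (adjusted *p*-value = 3.5e-06, edgeR). In sensitive strains the fit gave 1.42 ± 0.29 (adjusted *p*-value = 0.0029, edgeR).

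*mag* had 20.9 ± 7.1 CPM after copper and 107 ± 21 CPM in controls in sensitive strains, where it fell by 2.43 on the log2 scale (adjusted *p*-value = 9.0e-08, edgeR). It ranked 4 for the class difference that helped to choose the family, and the lists were chosen with earlier results of these data known. The *p*-values of *mag* are therefore a description, as is its place among the 2 genes that fell. In tolerant strains *mag* had -0.61 ± 0.18 (adjusted *p*-value = 0.088) and the lipase *Lip4* 0.35 ± 0.14 (0.262). *apolpp*, the main lipoprotein of the haemolymph, fell by 0.66 in sensitive strains (adjusted *p*-value = 0.00754, edgeR). The regulators of sterol and lipid genes did not pass, with *SREBP* at 0.03 ± 0.06 in tolerant and 0.15 ± 0.06 in sensitive strains and the sterol-binding receptor *Hr96* at -0.16 ± 0.10 and 0.11 ± 0.06.

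Of 17 lysosomal genes tested, 1 rose in tolerant strains, *Gba1a*, a glucocerebrosidase (0.66 ± 0.16, adjusted *p*-value = 0.036, edgeR), and 0 were called in sensitive strains. There, *Cln3* (-0.52), *Gba1b* (0.48) and *Ppt2* (0.45) had adjusted *p*-values below 0.05 and changes under 1.5-fold. The median over the list was 0.11 in tolerant and -0.02 in sensitive strains, and *Lamp1*, a protein of the lysosomal membrane, had -0.09 ± 0.06 and 0.04 ± 0.05. *spin*, a lysosomal transporter, had -0.30 ± 0.08 in tolerant strains (adjusted *p*-value = 0.0522). No gene of the lysosomal list was called lower in either class. Of all genes 1.53% were called in tolerant strains and 5.94% were called lower in sensitive strains, so 0 of 17 is near the background.

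Some markers of gut cells also fell in sensitive strains. In sensitive strains 5 of 10 enterocyte markers and 4 of 4 copper cell markers (acid-secreting cells of the middle midgut) were lower after copper, with medians of -0.83 and -0.84. Of all genes 5.94% were called lower there. In tolerant strains 0 of 10 and 0 of 4 were called, with medians of -0.16 and -0.13. As 1.53% of all genes were called in tolerant strains, these counts of 0 are near the background. Summed enterocyte markers spanned 1030 to 3788 CPM in 9 copper libraries and 1454 to 7755 CPM in 8 control libraries of sensitive strains, and 2867 to 4827 CPM and 2545 to 6945 CPM in tolerant strains. All 5 enterocyte markers that fell were digestive proteases, led by *thetaTry* at -2.64 ± 0.22 (adjusted *p*-value = 1.6e-06, edgeR) and *Jon65Ai* at -2.22 ± 0.26. As *thetaTry* ranked 7 for the class difference, its *p*-value is a description.

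The other enterocyte markers did not pass in sensitive strains. *Myo31DF*, a brush border myosin, had 0.04 ± 0.05, *mex1*, a midgut protein, had -0.23 ± 0.11, and *nub*, a transcription factor of enterocytes, had -0.23 ± 0.13. No defining marker of these lists was at 0. Copper cell markers summed to 9.34 to 84.9 CPM in copper and 28.6 to 90.1 CPM in control libraries of sensitive strains, and to 27.6 to 63.7 CPM and 45.0 to 69.8 CPM in tolerant strains. JUT-008 had 9.34 to 12.6 CPM of them after copper, against 28.6 to 44.4 CPM in controls. AKA-018 had 64.6 to 84.9 CPM after copper, against 84.2 to 90.1 CPM in controls. COR-018 had 21.1 to 24.1 CPM after copper, against 36.6 to 71.4 CPM in controls. In JUT-008, AKA-018 and COR-018 the log2 fold change of *Npc2d* was -3.08, -1.36 and -2.45, and that of *Npc2f* was -1.68, -2.28 and -2.27. A relation of these values to the marker sums was not tested.

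The marker sums also separated within tolerant strains. MUN-008 had 2867 to 3240 CPM of enterocyte markers after copper, against 3514 to 4351 CPM in controls, and 27.6 to 38.0 CPM of copper cell markers after copper, against 45.0 to 63.6 CPM in controls. GIM-012 overlapped, with 3368 to 4745 CPM of enterocyte markers after copper, against 2545 to 3692 CPM in controls. Over the 6 strains copper libraries lay below controls in 4 for the enterocyte sum and in 4 for the copper cell sum. The enterocyte sum overlapped in GIM-012 and in JUT-008, which had 1376 to 1548 CPM after copper, against 1454 to 3031 CPM in controls. The copper cell sum overlapped in GIM-012 and AKA-018.

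Other tissues were checked in the same way, where 1.53% of all genes were called in tolerant and 7.75% in sensitive strains. Of 5 enteroendocrine markers 0 were called in either class, and of 5 Malpighian tubule markers 1 was lower in each. Haemocyte markers had 3 of 5 higher in tolerant and 2 of 5 lower in sensitive strains. Fat body markers had 0 of 5 called in tolerant and 2 of 6 lower in sensitive strains, and ovary markers had 0 of 4 called in tolerant and 2 of 4 lower in sensitive strains. Of the 6 listed ovary markers, *vas* and *nos* were not found in the count table used here. Summed ovary markers lay below the controls in 6 of 6 strains, at 855 to 1588 CPM after copper, against 1742 to 2740 CPM in controls, in tolerant strains and at 725 to 2233 CPM after copper, against 1378 to 3179 CPM in controls, in sensitive strains. Summed fat body markers lay below the controls in 4 strains and above them in 1, GIM-012. Summed Malpighian tubule markers lay below the controls in 3 strains, JUT-008, MUN-008 and MUN-020, and above them in 0. The part of these markers in the changes of *Npc2f*, *Npc2d*, *Npc1b* and *Npc2g* was not tested.

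**Figure D4:**
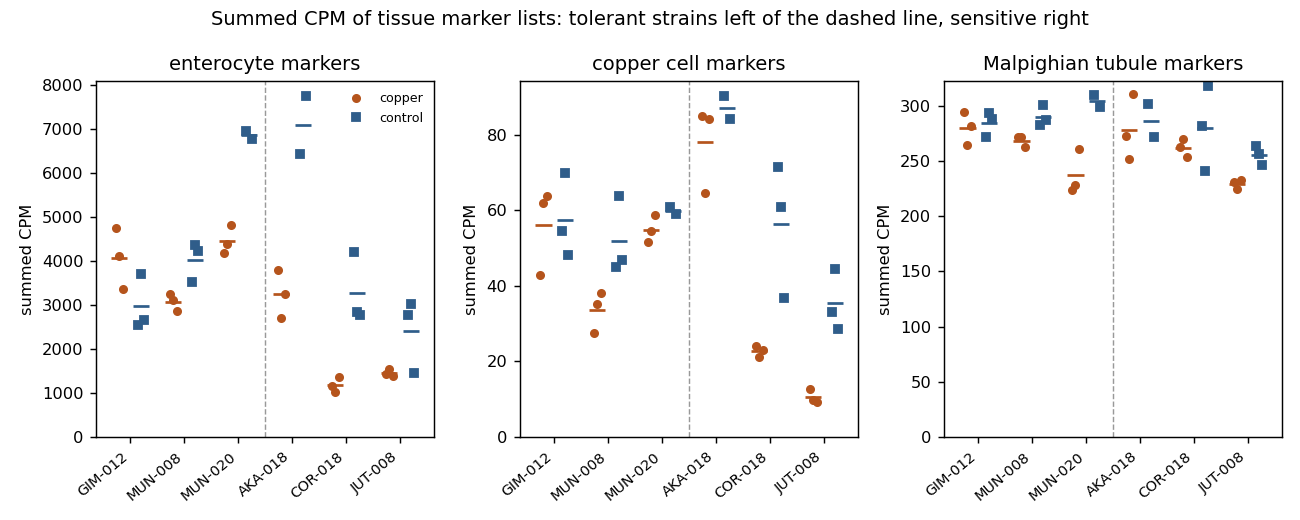
Summed CPM of enterocyte, copper cell and Malpighian tubule markers in each copper (circles) and control (squares) library, by strain, with a bar at each mean. Copper libraries of COR-018 and JUT-008 are low in copper cell markers (9.34 to 24.1 CPM). Malpighian tubule markers lie between 224 and 318 CPM in all libraries, with copper below control in JUT-008, MUN-008 and MUN-020.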

How the data were processed

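The authors deposited raw counts per gene for 34 libraries. Per the labels and methods, reads were checked with FastQC 0.11.8, trimmed with Trim Galore 0.5.0 and cutadapt 1.18, aligned with STAR 2.6 to dm6 and counted with featureCounts 1.6.2 in reverse-stranded mode, leaving out reads that matched several places or features. Its name speaks of males taken out, which the sources do not explain.

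Counts were scaled by TMM and filtered by filterByExpr in edgeR 4.0.16 (R 4.3.3). The quasi-likelihood test was fitted with strain and treatment within each class, with treatment in each strain, with class in control libraries, and with the class by treatment interaction in all libraries. *p*-values were adjusted by Benjamini-Hochberg over all genes tested, and a gene was called below 0.05 with a change of over 1.5-fold, except for interactions and differences among strains, which had no fold-change threshold. SEs are the fold change over the root of F. Log2 CPM for correlations used a prior count of 0.5. DESeq2 1.42.0, other scalings and filters, a replicate block and leaving out libraries or strains were alternatives. On simulated counts with 200 changed genes, the fits of tolerant and of sensitive strains each recovered 99%. The class difference recovered 98.5%, the basal comparison 92.5% and differences among strains 90%. The strain by copper interaction recovered 89% (tolerant) and 87% (sensitive), and the single strain simulated, AKA-018, 100% with 25 false calls. The planted changes were all well above 1.5-fold, in genes above a low level, with no other differences among strains. Recovery of smaller changes was not simulated.

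Members and lists were chosen with earlier results of these data known. Named genes are all members, list genes called in both classes or among the 3 largest changes in either, and the 5 genes most correlated with *Npc2f*. Other list genes and markers were named after their values were seen. Intervals are 95% and use the residual degrees of freedom. Replicates of a strain and treatment differed beyond counting error, so depth does not set the precision. Promoter and protein sequences were not analysed here.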

Additional observations from a re-analysis of the deposited data

Results flagged for a closer look

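Among 40 groups of member, class and treatment, 3 held a library that stood far from the others, where chance gives about 1 in 20 groups of like samples. Each group pools 3 strains that differ in level, so that rate holds only roughly, and 3 of 40 is close to it. *Npc1a* had 137 CPM in MUN-008 control replicate 2, where the next tolerant control library had 109 CPM. *Npc2a* had 183 CPM in GIM-012 copper replicate 1, with the next tolerant copper library at 135 CPM. *Npc2b* had 61.9 CPM in the same GIM-012 library, with the next at 47.0 CPM.

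In 4 of 18 tests of the strain by copper interaction within a class (edgeR, 9 members in each class) the copper response differed among strains. In tolerant strains these were *Npc2g* (adjusted *p*-value = 0.0334), with log2 fold changes of -0.73 (MUN-020), -0.31 (MUN-008) and 0.36 (GIM-012), and *Npc2h* (adjusted *p*-value = 0.027), with -0.67 (MUN-020), -0.51 (MUN-008) and 0.30 (GIM-012). Of all genes 24.1% passed in tolerant strains, so that 2 of 9 is near the background. The *Npc2g* call was lost without any of 9 of the 17 libraries and the *Npc2h* call without any of 6. In sensitive strains these were *Npc1b* (adjusted *p*-value = 0.0199) and *Npc2e* (adjusted *p*-value = 0.00748), where 2.02% of all genes passed. The *Npc1b* call was lost without any of 3 libraries, and *Npc2e* kept its call without each.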

How the results depend on the processing

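Of 1268 alternative values for 38 results on members, 7 crossed the threshold. Values of the class difference and of *Npc2f* are among the 1268 but had no threshold to cross. The sign changed in 63 of the 1268 values, for 16 results of at most 0.27 in size (log2), and 1 of these, *Npc2e*, was a call. In tolerant strains 0 members were called under every alternative except without GIM-012, which gave 1 (*Npc2d*, -0.73). In sensitive strains 3 were called, but 0 without the strain term (*Npc1b* -0.61, *Npc2d* -1.58 and *Npc2g* -0.73) and 4 without JUT-008, where *Npc2e* changed sign to 0.69. Without AKA-018, 2 basal calls appeared (*Npc1b* 1.29, *Npc2h* 0.81). Leaving out single libraries, the sensitive count stayed at 3 and the tolerant and basal counts at 0, the calls over strains ranged from 7 to 13, the class difference of *Npc2f* from 1.72 to 1.91, members differing among strains from 7 to 8, and members with a strain by copper interaction from 0 (without GIM-012 control replicate 1 or 4 or copper replicate 1, among others) to 5 (without GIM-012 copper replicate 4) in tolerant and from 1 (*Npc1b* lost without AKA-018 control replicate 3 or 4 or copper replicate 1) to 2 in sensitive strains. Without the libraries with male transcripts, which drops AKA-018 as no control library of it is left, the *Npc2f* difference was 1.68 and that of *Npc2c* -2.19. The causes were not tested.

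Calls over all genes moved by over 1.5 times in tolerant strains, where 177 became 320 with no fold-change threshold, 72 without the strain term and 85 without MUN-008, and in sensitive strains, where 954 became 3111, 127, 497 without COR-018 and 567 without JUT-008. For the class difference 517 became 1007 with DESeq2, 0 with counts summed per strain (454 at an unadjusted *p*-value below 0.05), and 22 to 1395 without single strains. For basal expression 655 became 11 with at least 10 counts in every library, 107 without libraries with male transcripts, and 6 to 1093 without single strains.

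Libraries with the same replicate number did not deviate together (r above 0.1 in 2 of 15 pairs, median -0.11), so the number was not taken as a pairing. With a replicate block, 0 members were called in tolerant and 3 in sensitive strains, and 93 and 541 of all genes.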
